A study of Mus musculus with 72 samples.

Results

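Ppara, the gene of the nuclear receptor PPAR alpha, and 6 genes of fatty acid oxidation that are known targets of this receptor (Cpt1a, Ehhadh, Cyp4a10, Cyp4a14, Acot1 and Pdk4) were followed in mouse liver and in the suprachiasmatic nucleus (SCN) of the hypothalamus. They were taken by symbol, 7 of the 24091 genes listed in the gene count tables of the series. All 7 are in the liver table of 22823 genes, and 4 of them (Cpt1a, Acot1, Ehhadh and Pdk4) are in the SCN table of 15759 genes. The mice were C57BL/6 by their sample labels, 8 to 12 weeks old, singly housed, with no transgene or deletion named. Food was either an isocaloric control diet or the MCD diet, which lacks methionine and choline, and was given for 11 days, of which 10 were spent in a light-dark cycle and the last in constant darkness. Livers and brains were collected on that last day at 6 circadian times (CT), from CT0 to CT20 in steps of 4 h. With 2 tissues there were 24 groups of 3 libraries, 2 from males and 1 from a female by the sample labels, although the protocol names male mice only. Liver RNA came from a piece of the left lobe and SCN RNA from laser-dissected brain sections. Nothing in the labels ties a liver library to an SCN library of the same mouse, and p-values measure the spread between these libraries.

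PPAR alpha is a ligand-activated transcription factor that binds DNA as a partner of the retinoid X receptor, and fatty acids and their derivatives are its ligands. In liver it is best known for raising the genes that burn fatty acids during fasting: their uptake, their entry into mitochondria, their oxidation in mitochondria and peroxisomes, and their hydroxylation in microsomes. A diet without methionine and choline is a common way to produce fatty liver in rodents. Levels of several PPAR alpha targets in liver also follow the time of day.

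Libraries held 52.6 to 86.7 M gene counts in liver (median 64.4 M) and 23.3 to 79.8 M in SCN (median 57.0 M). Levels are given as CPM (a gene's share of the counted reads, scaled to counts per M), after TMM scaling between libraries, or as CPM per kilobase of transcript where genes are compared with each other. The liver libraries fell into a pair of kinds by the level of mt-Nd6, a mitochondrial transcript: 21 with 32.8 to 133 CPM (8 control, 13 MCD) and 15 with 379 to 1038 CPM (10 control, 5 MCD). The library labelled control CT8 (a), a male, lay outside the range of the other control libraries of CT8 in 5 of the 7 genes. With 3 libraries per group so few set that range that many genes of any library can fall outside it. The share of all genes doing so was not counted. Values without this library are given where a call or a value named here turns on it. Hepatocyte markers (Alb, Ttr, Apoa1, Cyp2e1, Cps1 and Serpina1c) summed to 79711 to 121270 CPM in control livers and 57509 to 123997 CPM in MCD livers, and the SCN neuron markers Avp, Vip, Six6 and Nms are not listed in liver. Other cell type markers in liver moved with diet in their median: 5 of 5 listed macrophage markers summed to 147 to 317 CPM on control (median 180) and 187 to 324 CPM on MCD (median 257). The 4 erythrocyte markers went from a median of 191 to 102 CPM and the 4 cholangiocyte markers from 8.82 to 11.5 CPM, with overlapping ranges. The 4 stellate cell markers listed went from a median of 167 to 181 CPM, also with overlap. The part of these in the diet effects was not tested. In SCN all 6 neuron markers were present, at 1630 to 3178 CPM on control and 1724 to 4160 CPM on MCD, while Ttr, Apoa1, Cyp2e1 and Serpina1c are not listed. Erythrocyte markers in SCN had a median of 229 CPM on control (76.2 to 1508) and 116 CPM on MCD (43.4 to 392). The part of blood content in the SCN values was not tested.

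Cyp4a10 and Cyp4a14 encode cytochromes P450 that hydroxylate the omega end of fatty acids, and they lie with close relatives in a cluster on chromosome 4. Whether reads can tell them apart bears on every result for this pair. Their longest coding transcripts (GENCODE M21, build GRCm38) were 77.7% identical over the aligned bases, whereas Cyp4a10 was 95.7% identical to Cyp4a31 and 97.2% to Cyp4a32. A stretch of 60 exonic bases is shown because it separates the pair at 17 positions, in capitals, while Cyp4a31 and Cyp4a32 carry the Cyp4a10 form there. It spans bases 1274 to 1333 of the Cyp4a10 transcript (plus strand) and 1239 to 1298 of the Cyp4a14 transcript (minus strand).
Cyp4a10: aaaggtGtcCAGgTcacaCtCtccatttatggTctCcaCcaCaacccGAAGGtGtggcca
Cyp4a14: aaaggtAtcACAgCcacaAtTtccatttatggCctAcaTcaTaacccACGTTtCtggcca
Of all windows of 50 bases in the Cyp4a14 transcript, 0.245% occurred in another gene, against 30.5% for Cyp4a10. Acot1 shared 33.6% of its windows, mostly with Acot2 (23.7%), Pdk4 shared 1.43%, and Ppara, Cpt1a and Ehhadh shared 0. The counts of Cyp4a10 and Acot1 are therefore uncertain where reads were split among paralogs, and those of the other 5 genes rest on sequence that is nearly or fully their own.

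The most abundant of the 7 transcripts per length in control liver was Cyp4a10 at 119 ± 93.8 CPM per kb, followed by Cpt1a at 90.4 ± 37.9, Ehhadh at 89.5 ± 28.0 and Cyp4a14 at 87.4 ± 78.9 (mean ± SD, n = 18 libraries each). Neighbours in this order differed by less than the SD of either. Ppara was at 41.1 ± 12.7, Acot1 at 8.63 ± 4.86 and Pdk4 at 4.11 ± 3.07 CPM per kb. On MCD, Cyp4a14 stood first at 563 ± 290 CPM per kb, Cyp4a10 followed at 144 ± 62.8, and Pdk4 was at 12.0 ± 15.3. Between libraries of the same group the fitted coefficient of variation was 0.200 for Ppara and 0.188 for Cpt1a, near the median gene (0.211). It was 0.295 for Ehhadh, 0.471 for Acot1, 0.521 for Cyp4a10, 0.554 for Pdk4 and 0.692 for Cyp4a14. The same fold change is thus measured with more error for Cyp4a14 and Pdk4 than for Ppara or Cpt1a.

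Averaged over the 6 times, the MCD diet changed 2 of the 7 genes in liver: Cyp4a14 rose 8.13-fold and Pdk4 rose 2.25-fold. Of all 20249 genes tested, 46.6% were called at an adjusted p under 0.05, 25.3% higher and 21.2% lower, so a count of 2 in 7 does not stand above the background. The median log2 change of the 7 was 0.16, against 0.02 for all genes. Scaling by library totals alone moved the median gene to 0.27, and changes are given relative to the TMM scaling. In these pieces of tissue, a change in cell makeup and a change of RNA per cell cannot be told apart.

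The receptor gene Ppara had its lowest, median and highest level at 101, 127 and 253 CPM in the 18 control livers and at 71.5, 107 and 220 CPM in the 18 MCD livers. The ranges overlapped over most of their length. The mean log2 difference was -0.22 ± 0.09 (SE), which missed the threshold (adjusted p = 0.0568), and it was -0.27 with an adjusted p of 0.0104 without the library labelled control CT8 (a). It passed when any of 10 of the 36 libraries was left out (-0.27 to -0.17 over all 36), with the replicate block (adjusted p = 0.0472), with DESeq2 (0.0347) and with limma-voom (0.0466). With library totals alone it was 0.04, on the other side of 0.

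Cpt1a encodes the carnitine acyltransferase of the outer mitochondrial membrane that controls the entry of long-chain fatty acids. Its level ran from 196 over a median of 331 to 822 CPM on control and from 205 over 443 to 852 CPM on MCD. The groups overlapped almost fully, and the log2 difference of 0.16 ± 0.09 did not pass the test (adjusted p = 0.141). It passed with library totals (0.41, adjusted p = 0.000631) and without control library 3 of CT20 (adjusted p = 0.0465). Ehhadh, the peroxisomal bifunctional enzyme, ran from 153 over 252 to 418 CPM on control and from 131 over 216 to 782 CPM on MCD. Its upper tail was longer on MCD while its median was lower, and the log2 difference was 0.01 ± 0.14 (adjusted p = 0.969).

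Cyp4a14 was at 12.1 CPM in the lowest, 204 in the median and 672 in the highest control liver. On MCD the same 3 values were 433, 1324 and 2735 CPM, and 14 of the 18 MCD libraries lay above every control library. Its log2 difference was 3.02 ± 0.38 (adjusted p = 5.93e-07). Within the low mt-Nd6 kind of library the difference was 2.45 (adjusted p = 0.000181) and within the high kind 3.23 (adjusted p = 0.00815). Cyp4a10, from the same gene cluster, ran from 31.3 over 181 to 551 CPM on control and from 104 over 297 to 524 CPM on MCD. No MCD library lay outside the control range, and the log2 difference of 0.57 ± 0.26 missed the threshold (adjusted p = 0.075). It was 1.03 in the high and -0.08 in the low mt-Nd6 kind (adjusted p = 0.0796 and 0.88). Summed with its paralogs Cyp4a31 and Cyp4a32, the difference was 0.76 with an adjusted p of 0.00632. It also passed with limma-voom (0.74, adjusted p = 0.0205) and with library totals (0.81, adjusted p = 0.00888), and without control library 1 of CT0, 3 of CT4, 1 of CT12 or 3 of CT20 (lowest adjusted p = 0.0216). Without replicate 1 or replicate 3 it passed as well (0.83 and 0.89, adjusted p = 0.0393 and 0.0412), and without replicate 2 it was 0.14 (adjusted p = 0.761).

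Acot1, a cytosolic thioesterase that splits acyl-CoA into free fatty acid and coenzyme A, ran from 5.82 over 18.1 to 47.8 CPM on control and from 5.19 over 16.3 to 65.9 CPM on MCD. The ranges overlapped and the log2 difference was 0.03 ± 0.24 (adjusted p = 0.959). Pdk4 encodes the kinase that switches off pyruvate dehydrogenase and so spares glucose carbon. It ran from 2.56 over 11.2 to 39.4 CPM on control and from 5.83 over 24.4 to 214 CPM on MCD, and 4 MCD libraries lay above every control. Its log2 difference was 1.17 ± 0.28 (adjusted p = 0.00142). It was 1.29 in the high and 1.14 in the low mt-Nd6 kind, with adjusted p of 0.00838 and 0.136. Without the library labelled control CT8 (a) it was 1.40 (adjusted p = 6.34e-05). The difference was 0.76 (adjusted p = 0.0606) when the female libraries were left out.

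**Figure D1:**
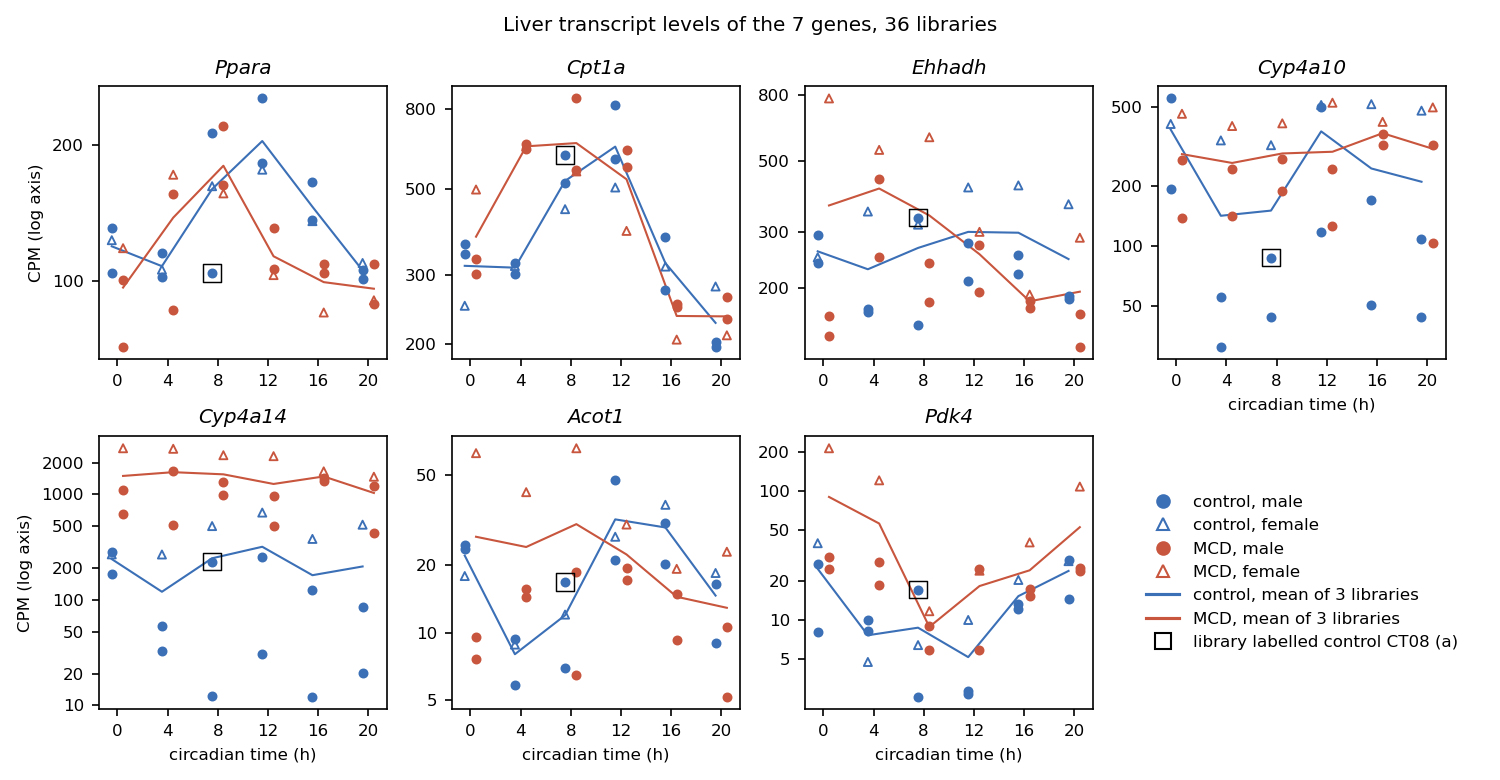
Liver levels of the 7 genes in CPM (log axes) against circadian time in hours; filled circles are males, open triangles females, lines join the means of 3 libraries, and a square marks the library labelled control CT8 (a). The mean of Cyp4a14 on MCD (red) stays above that on control (blue) at all 6 times, although single libraries overlap at CT12 and CT20, while the means of Ppara and Cpt1a on MCD lie above control at CT4 and CT8 and below it at CT12 and CT16.

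Resolved by time, the diet effect passed the test 6 times among the 7 genes and 6 times of day. The share of all genes called was 12.6% at CT0, 18.2% at CT4, 1.3% at CT8, 15.2% at CT12, 12.5% at CT16 and 11.3% at CT20, and the numbers of the 7 genes called were 0, 3, 0, 1, 1 and 1. Leaving out a single library lowered the number of all genes called to as few as 1229 of 2550 at CT0 (without control 1), 1994 of 3679 at CT4 (without MCD 1), 37 of 263 at CT8 (without control b), 1249 of 3081 at CT12 (without MCD 2), 1140 of 2532 at CT16 (without MCD 3) and 1238 of 2288 at CT20 (without control 2). At CT4 all 3 calls were increases, in Cpt1a, Cyp4a14 and Pdk4. Cpt1a was at 323, 301 and 316 CPM in the controls of CT4 and at 633, 652 and 641 CPM on MCD. The replicates of a diet lay within a narrow band there and the bands were far apart, for a log2 difference of 1.03 ± 0.21 (adjusted p = 0.0016). Pdk4 at CT4 was at 9.97, 8.23 and 4.75 CPM on control and at 28.3, 18.9 and 121 CPM on MCD. All 3 MCD libraries were higher, the female far above the males, with a log2 difference of 2.32 ± 0.72 (adjusted p = 0.0258). The call was lost without control library 2 or 3 or MCD library 1 or 3 of CT4 (1.80 to 2.72 over all single libraries left out, highest adjusted p = 0.118). Cyp4a14 at CT4 was at 56.3, 32.7 and 269 CPM on control and at 518, 1648 and 2704 CPM on MCD. Both sets are wide but did not overlap, and the log2 difference of 4.13 ± 0.98 was the largest of the 6 times (adjusted p = 0.00488).

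The remaining calls were 1 decrease and 2 increases. Ppara at CT12 was at 253, 182 and 176 CPM on control and at 131, 106 and 103 CPM on MCD. It fell by a log2 change of 0.85 ± 0.23 (adjusted p = 0.0143), with every MCD library below every control. The call was lost with library totals alone (-0.48, adjusted p = 0.0537) and without control library 1 or MCD library 2 of CT12 (highest adjusted p = 0.105). Cyp4a14 rose by 3.71 ± 0.96 at CT16 (adjusted p = 0.0125) and by 2.98 ± 0.93 at CT20 (adjusted p = 0.0394). At CT16 the call of Cyp4a14 was lost without control library 1 (adjusted p = 0.0646). At CT20 it was lost without control library 1 or 2 or any of the 3 MCD libraries (2.33 to 3.74 over all single libraries left out, highest adjusted p = 0.155). At CT0, CT8 and CT12 its log2 differences were 2.25, 2.93 and 2.15 (adjusted p = 0.105, 0.132 and 0.105), so that the sign was the same at all 6 times.

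At CT16, 4 genes had lower values in every MCD library than in any control library without passing the test, a separation that 15.1% of all genes showed. Cpt1a was at 275, 375 and 315 CPM on control and at 253, 249 and 205 CPM on MCD (log2 difference -0.46, adjusted p = 0.156). Ppara was at 136, 166 and 136 CPM against 109, 104 and 85.1 CPM (-0.55, adjusted p = 0.11). Ehhadh was at 221, 254 and 418 CPM against 173, 182 and 191 CPM (-0.62, adjusted p = 0.25), and Acot1 at 20.2, 30.8 and 37.0 CPM against 14.8, 9.29 and 19.2 CPM (-1.04, adjusted p = 0.244). For Acot1 the order was the opposite at CT4, where controls were at 9.37, 5.82 and 8.84 CPM and MCD livers at 14.4, 15.5 and 42.1 CPM (1.40, adjusted p = 0.0989). Cpt1a likewise had every MCD library above the controls at CT4 and below them at CT16. For the separations named at CT4 and CT12, the share of all genes with such a separation was not counted.

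The ratio of Cyp4a14 to Cyp4a10, in levels per length, is described library by library without a test, since it was chosen after the values were seen. In the 18 control livers Cyp4a14 was at 0.202 to 2.23 times the level of Cyp4a10 (median 0.642). In the 18 MCD livers the ratio ran from 2.50 to 5.74 (median 3.62), above every control. The mean log2 ratio was 2.64 higher on MCD. The highest control ratio belonged to the library labelled control CT8 (a). Without it the highest was 1.32 and the difference 2.75. Both sexes showed the separation, with 0.202 to 2.23 in control males, 0.557 to 1.32 in control females, 3.10 to 5.74 in MCD males and 2.50 to 5.70 in MCD females.

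The relatives of Cyp4a10 and Acot1 did not move as a block. Over the aligned bases, Acot1 was 94.3% identical to Acot2 and 85.2% to Acot3. Cyp4a31 was at 5.92 to 46.8 CPM on control and at 62.8 to 201 CPM on MCD, without overlap. Its log2 change was 2.32 ± 0.21 (adjusted p = 4.36e-09), and it passed the test at each of the 6 times. Cyp4a32 had a log2 difference of -0.17 ± 0.13 (adjusted p = 0.314). Acot2, the mitochondrial relative of Acot1, rose by 1.41 ± 0.27 (adjusted p = 0.00014), and Acot3 had a mean log2 difference of 1.24 ± 0.47 (adjusted p = 0.0328). Acot3 rose by 2.08 ± 0.49 in males (adjusted p = 0.00145) and was at -0.47 ± 0.65 in females (adjusted p = 0.667), and the difference between the sexes missed the threshold (-2.55, adjusted p = 0.14). Of the windows of 50 bases, Cyp4a31 shared 21.8%, Cyp4a32 46.8%, Acot2 27.7% and Acot3 19.5% with other genes, and Acot3 overlaps exons of another gene on its own strand and of an antisense gene, so the counts of all 4 are uncertain.

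**Figure D2:**
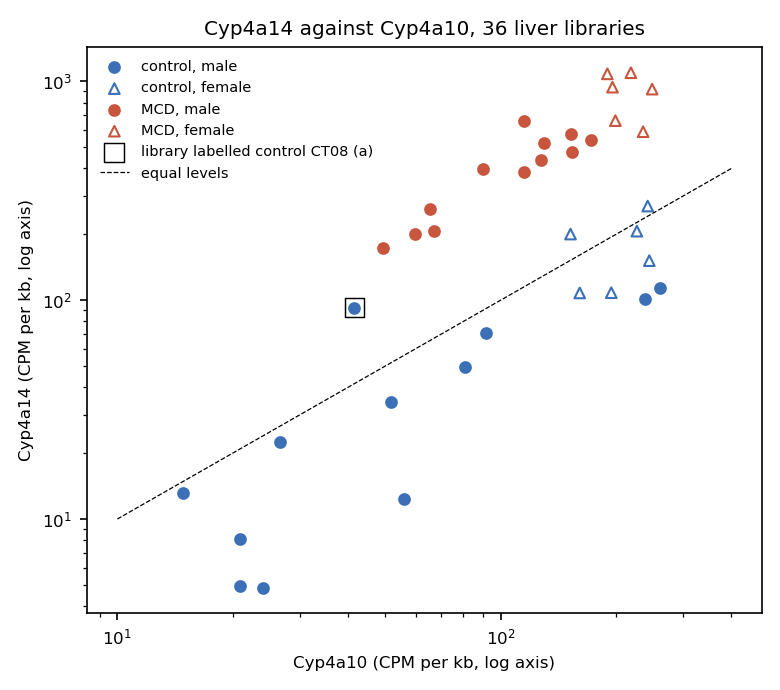
Level of Cyp4a14 against that of Cyp4a10 in CPM per kb (both axes logarithmic), 1 point per liver library; the dashed line marks equal levels and a square the library labelled control CT8 (a). All 18 MCD libraries lie above the line, at ratios of 2.50 to 5.74, and the controls lie on both sides of it.

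A rhythm was tested in each diet by fitting a 24 h cosine and sine to the means of the 6 times. In control livers 3 of the 7 genes were called, Ppara, Cpt1a and Pdk4, against 17.8% of all genes. In MCD livers 4 were called, the same 3 and Ehhadh, against 28.2% of all genes. The fitted peak-to-trough range of Cpt1a was 1.28 log2 units on control (adjusted p = 3.43e-05) and 1.72 on MCD (adjusted p = 3.86e-07). Ppara had a range of 0.86 on control (adjusted p = 0.00568) and 0.85 on MCD (adjusted p = 0.00384). The widest ranges were those of Pdk4, 2.14 on control (adjusted p = 0.0284) and 2.44 on MCD (adjusted p = 0.00768). On control the range of Pdk4 was 3.10 without the library labelled control CT8 (a) (adjusted p = 0.00183), and 1.98 with library totals alone, which missed the threshold (adjusted p = 0.0587). It also missed it without any one of 6 other control libraries (1 of CT0, b or 3 of CT8, 1 or 2 of CT12, 2 of CT20; highest adjusted p = 0.0831). Ehhadh had a range of 1.08 on MCD (adjusted p = 0.0159) and 0.29 on control (adjusted p = 0.749), and the call on MCD was lost without MCD library 1 of CT4 or 3 of CT16 (highest adjusted p = 0.0632). Acot1 had a range of 1.48 on control (adjusted p = 0.0752) and 1.01 on MCD (adjusted p = 0.244). On control Acot1 passed with DESeq2 (adjusted p = 0.0394) and without the library labelled control CT8 (a) (1.68, adjusted p = 0.0423) or MCD library 3 of CT0 (adjusted p = 0.0394). Neither Cyp4a gene was called on either diet, with ranges of 0.79 and 0.43 for Cyp4a10 and 0.28 and 0.24 for Cyp4a14 on control and MCD, and adjusted p from 0.529 to 0.971.

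The rhythm itself differed between the diets in Cpt1a, with a range of 1.28 for the difference (adjusted p = 0.00842), where 4.87% of all genes were called. It was the only call among the 7. The range of the difference was 0.90 for Ppara (adjusted p = 0.0933), 2.28 for Acot1 (adjusted p = 0.0965), 1.29 for Ehhadh (adjusted p = 0.121) and 0.72 for Pdk4 (adjusted p = 0.894). It was 0.42 for Cyp4a10 (adjusted p = 0.966) and 0.31 for Cyp4a14 (adjusted p = 0.998). Without the library labelled control CT8 (a) it was 1.35 for Pdk4 (adjusted p = 0.482) and 0.64 for Cyp4a14 (adjusted p = 0.952). With DESeq2, Ppara (adjusted p = 0.032), Acot1 (0.0378) and Ehhadh (0.0457) passed as well, and Ehhadh passed without the library labelled control CT8 (a) (1.48, adjusted p = 0.0481). Ppara passed without MCD library 1 of CT4 (1.08, adjusted p = 0.0219). From a 24 h cosine fit, Cpt1a peaked at CT9.84 ± 0.66 on control and at CT6.74 ± 0.42 on MCD, a shift of -3.10 ± 0.78 h (SE). Its level was highest at CT12 in controls, with 822, 598 and 503 CPM, while MCD livers were already at 633 to 652 CPM at CT4 and at 558, 852 and 554 CPM at CT8. Ppara peaked at CT11.7 ± 0.90 on control and CT7.55 ± 1.03 on MCD, a shift of -4.17 ± 1.37 h, or of -3.59 ± 1.23 h without the library labelled control CT8 (a). Ppara was at 104 CPM in that library and at 213 and 162 CPM in the other controls of CT8. Pdk4, whose peak falls late in the cycle, went from CT21.2 ± 0.93 to CT22.7 ± 0.79, a shift of 1.55 ± 1.22 h.

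Fitted peaks of 4 clock genes in the same livers are given for comparison. Their shift on MCD was -1.30 ± 0.57 h for Arntl (Bmal1, the activator of the clock), -0.98 ± 0.47 h for Nr1d1, -0.79 ± 0.57 h for Dbp and -1.66 ± 0.75 h for Per2. The shifts of peak were not tested, neither against 0 nor between genes. Cpt1a is the only gene of the 5 with a promoter in the RefSeq table (GRCm38.p6) whose window, 250 bases before to 50 after the start, holds AGGTCA, the core motif bound by many nuclear receptors. The 250 bases before its start, in the entry chr19:3323051-3323350 on the plus strand, are shown for that match, in capitals, which reads TGACCT here because it lies on the other strand.
Cpt1a: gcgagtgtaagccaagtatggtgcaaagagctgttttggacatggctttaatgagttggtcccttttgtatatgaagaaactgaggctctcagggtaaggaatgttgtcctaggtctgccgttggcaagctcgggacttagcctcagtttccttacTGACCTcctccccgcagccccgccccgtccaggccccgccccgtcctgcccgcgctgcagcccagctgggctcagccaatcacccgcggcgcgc
Searched on both strands, AGGTCA occurs in 16.3% of the 32851 promoters of the table. The full direct repeat AGGTCANAGGTCA occurs in 0.0396% of them and CACGTG, the E-box of clock factors, in 7.15%, and neither is in the windows of Ppara, Cpt1a, Acot1, Ehhadh and Pdk4. Cyp4a10 and Cyp4a14 have no entry. These matches are descriptions of the letters and not of binding.

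**Figure D3:**
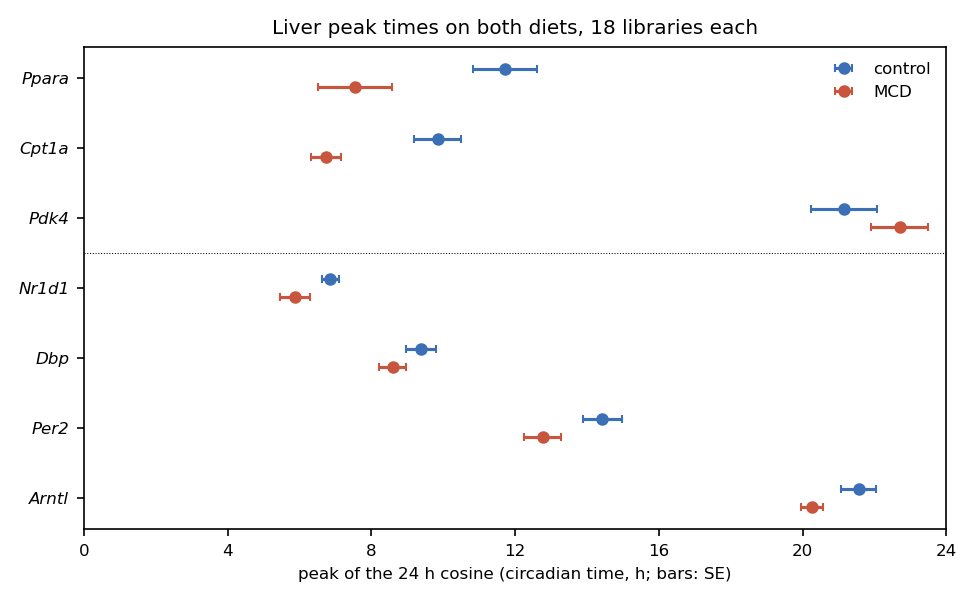
Peak of the 24 h cosine fit in circadian hours for Ppara, Cpt1a and Pdk4 (above the dotted line) and 4 clock genes in liver, control in blue and MCD in red, 18 libraries each, bars SE. On MCD the peaks of Ppara and Cpt1a are shifted by -4.17 and -3.10 h, those of the clock genes by -1.66 to -0.79 h, and that of Pdk4 by 1.55 h.

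Averaged over the diets, 5 of the 7 genes were higher in female than in male livers, where 10.3% of all genes were called and 5.44% were higher in females. Cyp4a14 was 3.26-fold higher (log2 1.71 ± 0.36, adjusted p = 0.00227), Cyp4a10 2.83-fold (1.50 ± 0.26, adjusted p = 0.000281), Pdk4 2.20-fold (1.14 ± 0.27, adjusted p = 0.00739), Acot1 1.85-fold (0.89 ± 0.19, adjusted p = 0.00294) and Ehhadh 1.81-fold (0.85 ± 0.15, adjusted p = 0.000213). The receptor gene and the mitochondrial entry gene did not pass, with -0.02 ± 0.10 for Ppara (adjusted p = 0.954) and -0.13 ± 0.09 for Cpt1a (adjusted p = 0.484). Every group holds 1 female, numbered 3 in all, so sex and that replicate number cannot be told apart.

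Counted group by group, the female exceeded both males in 11 of the 12 groups of diet and time for Cyp4a10 and for Cyp4a14, in 10 for Ehhadh and in 8 each for Acot1 and Pdk4. For Ppara this was so in 3 groups and for Cpt1a in 2. By diet it held for Acot1 at 2 of 6 times on control and 6 of 6 on MCD, and for Pdk4 at 3 and 5. How often it held over all genes was not counted. On the control diet alone 3 of the 7 were called, against 9.87% of all genes: Cyp4a14 at 2.26 (adjusted p = 0.00473), Cyp4a10 at 1.96 (adjusted p = 0.000877) and Ehhadh at 0.66 (adjusted p = 0.039). The other values on control were 0.51 for Pdk4 (adjusted p = 0.501), 0.10 for Acot1 and -0.05 for Ppara (0.895 each) and -0.13 for Cpt1a (0.634). Control males spread over 31.3 to 551 CPM for Cyp4a10, and control females over 321 to 515 CPM. For Cyp4a14 the control males lay at 12.1 to 284 CPM and the control females at 269 to 672 CPM, so the sexes barely overlapped.

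Females and males differed in their response to the diet in Acot1 (log2 difference 1.58 ± 0.40, adjusted p = 0.0373), where 1.77% of all genes were called. Acot1 in MCD females was at 62.7 CPM at CT0, 42.1 at CT4, 65.9 at CT8, 30.2 at CT12, 19.2 at CT16 and 22.9 at CT20, in each group above both males. The 12 MCD males lay at 5.19 to 19.4 CPM, the 12 control males at 5.82 to 47.8 CPM and the 6 control females at 8.84 to 37.0 CPM. Acot1 rose in females by a log2 change of 1.08 ± 0.32 (adjusted p = 0.0153) and differed by -0.50 ± 0.23 in males (adjusted p = 0.0851). The female call was lost without MCD library 3 of CT0 or of CT8 (highest adjusted p = 0.08). The difference in males passed with the mt-Nd6 kind as a term (-0.58, adjusted p = 0.0355), with DESeq2 (0.0442), and without MCD library 1 of CT16 or 2 of CT20 (lowest adjusted p = 0.0397). Summed with Acot2, the difference between the sexes was 1.48 with an adjusted p of 0.0916, and it also missed the threshold with the replicate number in place of sex (1.56, adjusted p = 0.0766) and when any of 15 of the 36 libraries was left out.

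Taken within each sex, the diet changed 2 of the 7 genes in males, where 39.6% of all genes were called, and 3 in females, where 24.8% were. In males Cyp4a14 rose by 3.39 ± 0.46 (adjusted p = 4.31e-06), from a mean of 110 ± 101 to 1007 ± 403 CPM (SD, n = 12 libraries each), and Cyp4a10 rose by 0.88 ± 0.31 (adjusted p = 0.0255), a call lost with the replicate block (adjusted p = 0.0964) and without control library 2 of CT4, b of CT8 or 2 of CT20, or MCD library 2 of CT0 or of CT20 (highest adjusted p = 0.0632). Beside single libraries left out, 8 of 10 alternatives kept the call of Cyp4a10 in males (lowest value 0.32, highest adjusted p = 0.643). In females Cyp4a14 rose by 2.29 ± 0.63 (adjusted p = 0.00902), from 435 ± 158 to 2202 ± 530 CPM (SD, n = 6 libraries each). The Cyp4a14 levels of the diets did not overlap in either sex. The log2 difference of Cyp4a10 in females was -0.05 ± 0.44 (adjusted p = 0.976). Pdk4 rose in females by 2.00 ± 0.47 (adjusted p = 0.0026), with 11.7 to 214 CPM on MCD and 4.75 to 39.4 CPM on control. In males its difference was 0.76 ± 0.32 (adjusted p = 0.0652), and it passed there with the replicate block (0.99, adjusted p = 0.0269), with DESeq2 (0.0425), with library totals (0.0157) and without the library labelled control CT8 (a) (1.05, adjusted p = 0.00626), control library 3 of CT12 or MCD library 1 of CT12. Ppara was at -0.24 in males and -0.17 in females (adjusted p = 0.104 and 0.492), Cpt1a at 0.15 and 0.16 (0.272 and 0.497) and Ehhadh at -0.11 and 0.27 (0.645 and 0.475). The contrast between the sexes did not itself pass in these 6 genes, with adjusted p of 0.357 for Pdk4, 0.524 for Cyp4a10, 0.611 for Cyp4a14, 0.684 for Ehhadh, 0.951 for Ppara and 0.998 for Cpt1a.

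**Figure D4:**
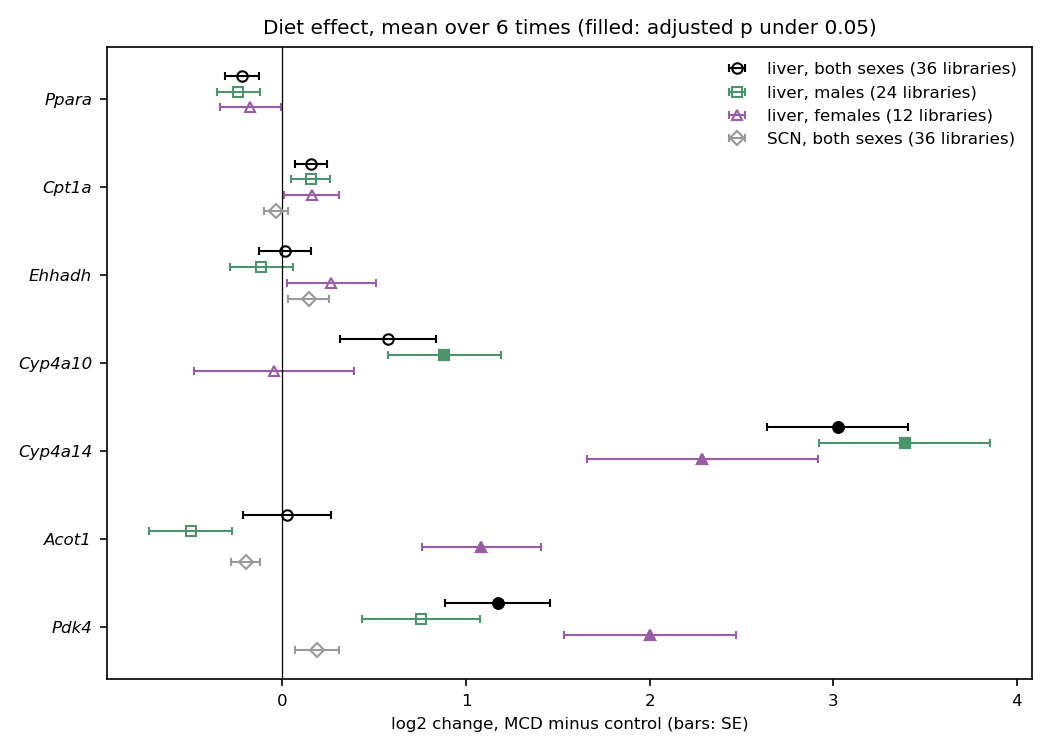
Diet effect as log2 change, MCD minus control, averaged over 6 times, for each gene in liver (both sexes, males, females) and in SCN; bars are SE and filled symbols passed the test. Cyp4a14 lies at 2.29 to 3.39 in every liver series, and Acot1 lies at 1.08 in females and -0.50 in males.

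In SCN, the seat of the central circadian clock, 4 of the 7 genes were measured and all were at low levels. Cpt1a was at 15.7 to 21.8 CPM on control (median 18.3) and 11.4 to 22.6 CPM on MCD (median 18.2). Acot1 was at 10.7 to 26.9 CPM on control (median 14.4) and 9.18 to 20.1 CPM on MCD (median 13.2). Ehhadh was at 3.35 to 6.52 CPM on control (median 4.63) and 3.65 to 8.96 CPM on MCD (median 5.27), and Pdk4 at 5.19 to 14.4 CPM (median 7.78) against 6.58 to 27.8 CPM (median 9.19). The diets overlapped for all 4. Per length the order was Acot1 (6.26 ± 1.71 CPM per kb), Cpt1a (4.25 ± 0.51), Pdk4 (2.64 ± 1.11) and Ehhadh (1.66 ± 0.40; SD, n = 36 libraries each), where Pdk4 and Ehhadh differed by less than the SD of Pdk4. Cpt1a and Ehhadh were below every liver library, while Acot1 and Pdk4 lay within the range of their liver levels.

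The diet effect in SCN passed the test in 0 of the 4 genes, where 0.0635% of all genes did (edgeR quasi-likelihood test). Acot1 had a log2 difference of -0.20 ± 0.08 (edgeR, unadjusted p = 0.0156, adjusted p = 0.798). DESeq2 and limma-voom also called 0 of the 4. The other differences were -0.04 ± 0.06 for Cpt1a, 0.14 ± 0.11 for Ehhadh and 0.19 ± 0.12 for Pdk4 (adjusted p = 1 each). At single times the lowest adjusted p among the 4 was 0.836, for Pdk4 at CT4. A 24 h rhythm was called for Acot1 on both diets, where 15.1% of all genes were called on control and 16.1% on MCD. Acot1 in control SCN was at 17.3, 20.3 and 26.9 CPM at CT0 and at 11.1, 10.8 and 10.7 CPM at CT12. Its range was 0.95 log2 units on control (adjusted p = 0.000243) and 0.62 on MCD (adjusted p = 0.017), where the call was lost without MCD library 3 of CT0 (0.46, adjusted p = 0.112). It peaked at CT1.58 ± 0.57 on control and CT23.3 ± 1.05 on MCD, a shift of -2.24 ± 1.20 h. The rhythms of 0 of the 4 genes differed between the diets by edgeR's test (0.0127% of all genes). The lowest unadjusted p among the 4 in that test was 0.0585, for Acot1.

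Tested directly, the diet effect was larger in liver than in SCN for Pdk4 (log2 0.98 ± 0.31, adjusted p = 0.0104), where 34.7% of the 14491 shared genes were called. The differences between the tissues were 0.19 ± 0.11 for Cpt1a (adjusted p = 0.175), 0.22 ± 0.25 for Acot1 (adjusted p = 0.528) and -0.13 ± 0.18 for Ehhadh (adjusted p = 0.619). The call for Pdk4 was lost when the female libraries were left out.

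**Figure D5:**
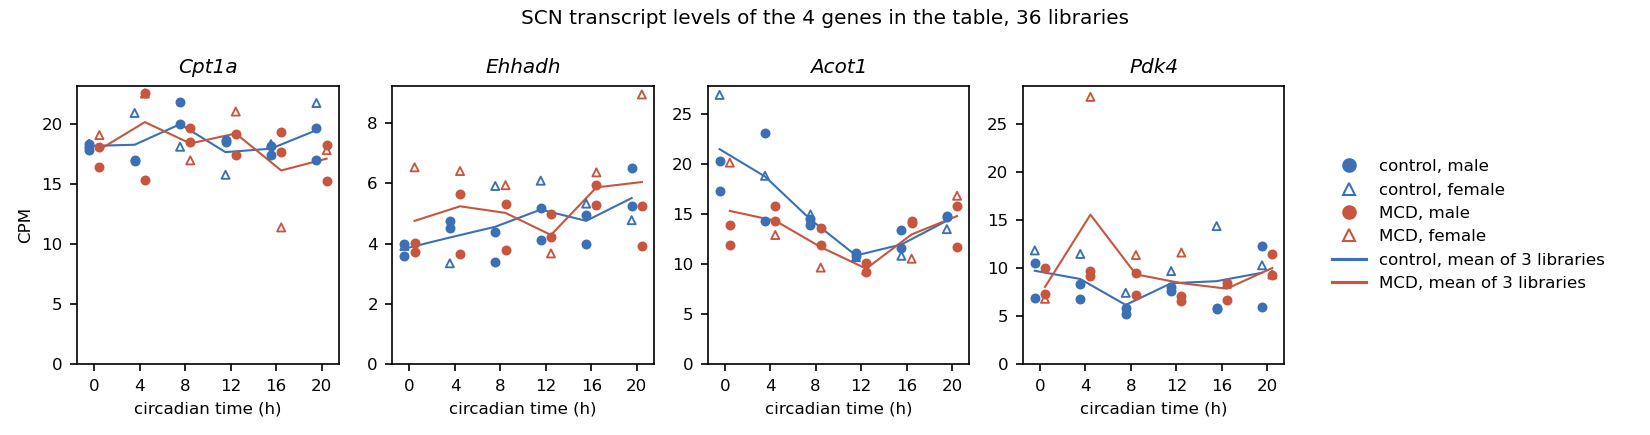
SCN levels in CPM (linear axes from 0) of the 4 genes in the table against circadian time in hours, symbols as in the liver plot. Acot1 falls from CT0 to CT12 on both diets, and a single MCD female at CT4 stands out for Pdk4 at 27.8 CPM.

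Further genes of the pathway were taken from 10 lists of 89 genes in all, of which 88 were tested in liver. Of these, 31 rose and 29 fell on MCD and 28 did not pass, where 25.3% of all genes rose and 21.2% fell. The median log2 change was 0.03 against 0.02 for all genes. Among regulators and partners, 5 rose and 1 fell of 12, with Pparg, the fat-cell member of the receptor family, at 1.12, Ppargc1a, a coactivator, at 0.38 and Ppard, a further member, at -0.32. In uptake and activation 3 rose and 6 fell of 10. Cd36, a fatty acid transporter, rose by 1.47 and Acsl4 by 0.20, while the transporter Slc27a5 (-1.26) and the acyl-CoA synthetase Acsl5 (-1.10) fell. In the carnitine shuttle that Cpt1a belongs to, 4 of 7 rose and 0 fell, with Cpt1b, the muscle form, at 1.64 and Crat at 0.80.

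Mitochondrial beta oxidation had 4 rising and 7 falling genes of 15: the dehydrogenases Acadm (0.26) and Acadl (0.24) rose, and Echs1 (-0.56) and Acaa2 (-0.52) fell. Peroxisomal oxidation, the pathway of Ehhadh, had 3 rising and 3 falling of 11. The fatty acyl transporter Abcd2 rose by 1.11 and Pex11a by 0.85, while Abcd3, another transporter of the peroxisomal membrane, fell by 0.89. Beside Cyp4a31, the omega oxidation list had 4 falling genes of 7, led by Cyp4a12b (-2.36) and Cyp4a12a (-2.18), which belong to the same P450 subfamily as Cyp4a14. Among thioesterases, Acot13 (-0.49) and Acot7 (-0.47) fell while Acot2 and Acot3 rose. In the control of pyruvate dehydrogenase, 2 rose and 3 fell of 6. Pdp1, the phosphatase that opposes Pdk4, rose by 0.97 and Pdk3 by 0.92, while Pdk1 fell by 1.12 and Pdk2 by 0.27. Ketone body formation had 1 rising gene, Bdh1 (0.41), and 1 falling, Acat1 (-0.29), of 4. Of the other known targets, 6 rose and 2 fell of 9, with Fgf21, a secreted hormone of the fasting liver, at 4.56, Ucp2 at 0.99, Retsat at -0.70 and Mgll at -0.28. In SCN 0 of 76 genes of these lists passed edgeR's test, where 0.0635% of all genes did.

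After removal of the group means and the sex difference, correlations between the 7 genes over the 36 livers are given as a description, without a test and without a background over other genes. The closest pair was Cyp4a10 and Cyp4a14, with a Pearson r of 0.85 and a Spearman rho of 0.86. Its r was 0.85 without the 2 libraries farthest from the median of Cyp4a10, 0.85 in the 21 libraries of the low and 0.81 in the 15 of the high mt-Nd6 kind. Acot1 and Ehhadh followed with r = 0.71 and rho = 0.62, with r = 0.62 without the 2 farthest libraries and 0.48 in the high kind. Cpt1a correlated with Ehhadh at r = 0.61, with Acot1 at 0.54, with Cyp4a10 at 0.46 and with Cyp4a14 at 0.44. The r of Ehhadh with Pdk4 was 0.46. Below these, Ppara correlated with Cpt1a at r = 0.41 and rho = 0.46, with r = 0.57 without the 2 farthest libraries and 0.25 in the high kind. The r of Ppara was 0.33 with Cyp4a10 (rho = 0.44), 0.22 with Acot1, 0.09 with Cyp4a14 and -0.12 with Pdk4. With Ehhadh it was -0.06 over all libraries, 0.17 in the low and -0.66 in the high kind.

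Likeness was described as the Pearson correlation of log2 CPM over the 36 liver libraries, which share diet, time and sex, and without a test. The transcripts nearest to Ppara were Rab43 (r = 0.91), Pcsk4 (0.87) and Bnip3 (0.84), and those near to Cpt1a included Pnpla2 (0.91), which encodes the triglyceride lipase of lipid droplets, and Gnl1 (0.89). Cyp4a14 was nearest to its neighbour Cyp4a31 (0.97), then to Agt and Mgst3 (0.89 each). Cyp4a10 was instead nearest to Cyp2b9 (0.85), Acot3 (0.83) and Cyp2c38 (0.79). Acot1 and Ehhadh had Aldh3a2, which oxidizes fatty aldehydes, in common (0.76 and 0.83), and Ehhadh was the nearest to Acot1 (0.76), followed by Galnt2 (0.75). Ehhadh itself was nearest to Rtn4 (0.85), and Nmt2 came after Aldh3a2 (0.79). Pdk4 was nearest to Tor3a (0.86), Tmem64 and Leprotl1 (0.81 each). None of the other 6 had Ppara among its 3 nearest genes.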

How the data were processed

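Whole-number read counts per gene, as deposited by the authors in 1 table per tissue, were analysed for 72 libraries (36 per tissue). Per the submitters' processing notes, GRCm39, Trimmomatic, HISAT2, StringTie and DESeq2 were used, with no role or version stated, while the counter and its strand setting are not given in the sources used. Per the labels' protocols, libraries were made from polyadenylated RNA with a stranded kit. Both tables have a pair of columns for control males at CT8 that share a name. They were used as libraries a and b without a number. Every pair of libraries of a tissue differed in at least 94.3% (liver) or 97.7% (SCN) of the genes tested. The exon-bin counts, deposited per library, were not used here.

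Tests used edgeR 4.0.16 in R 4.3.3 (quasi-likelihood F), with TMM scaling, filterByExpr (minimum count 10, leaving 20249 liver and 15759 SCN genes, all members included), robust dispersions, 12 groups of diet and time plus sex per tissue, and Benjamini-Hochberg adjustment over all genes tested (threshold 0.05). Sex-by-diet and tissue-by-diet terms tested those differences. SE is the log2 change over the square root of F. Peaks came from a 24 h cosine fit on log2 CPM (prior count 2). Correlations are given without a test. Alternatives were DESeq2 1.42.0, limma-voom (limma 3.58.1), library totals, no filter, paralog sums, the mt-Nd6 kind as a term or within kinds, a replicate block, and leaving out libraries. Scripts were tested on simulated data. Sequences and annotation are GRCm38, so no coordinate was joined to the counts. Replicate numbers are not stated to pair libraries, and the main fit has no replicate block. Deviations of same-numbered control and MCD libraries correlated at 0.02 to 0.27 in liver and -0.11 to 0.09 in SCN (5 times each). Such values cannot tell whether libraries of the same number were handled together. Counting error is small at these depths, and errors given are SD between libraries or SE of fits. The rule for named genes takes the 7 genes in every comparison (at single times, those called or with separate groups), with their paralogs, the 3 most correlated genes, 4 clock genes, and up to 2 genes per list and direction with the largest called changes. Some genes that this rule names are not reported here. The members and lists were chosen with earlier results of these data known.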

Additional observations from a re-analysis of the deposited data

Results flagged for a closer look

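Acot1 met the criterion that the diet effect differ between the sexes: the log2 difference, females minus males, was 1.58 in liver (edgeR adjusted p = 0.0373), with Acot1 higher in the MCD female than in both MCD males at 6 of 6 times and in the control female at 2 of 6. Cpt1a had a 24 h rhythm that differed between the diets, with a fitted range of the difference of 1.28 log2 units in liver (adjusted p = 0.00842). Pdk4 responded to diet differently in liver and SCN, by 0.98 log2 units (adjusted p = 0.0104).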

How the results depend on the processing

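The numbers of members called moved by more than 1.5 times in these cases. The mean liver diet effect went from 2 genes to 4 with limma-voom and with library totals and to 1 within the low mt-Nd6 kind, with 2 to 4 when single libraries were left out (4 without control CT20 3). Calls at single times went from 6 to 10 with DESeq2 and with library totals, to 0 to 3 without a replicate number and to 5 to 8 without single libraries. Rhythm calls went from 3 to 1 on control and from 4 to 1 to 2 on MCD without a replicate number, and the difference in rhythm from 1 to 4 with DESeq2, 2 without control CT8 (a) or MCD CT4 1 and 0 without a replicate number. Sex calls went from 5 to 3 without replicate 2. The diet effect by sex went from 1 to 0 with the replicate block, with paralog sums, and without replicate 1 or 2. In SCN, rhythm calls went from 1 to 0 without replicate 2 on control and without replicate 2 or 3, or MCD CT0 3, on MCD. Liver against SCN went from 1 to 2 with library totals and to 0 without replicate 3. Sex contrasts could not be fitted without replicate 3. The causes were not tested, but fewer libraries enter a fit without a replicate. Beside Acot1 by sex, the replicate block changed the calls of Ppara for diet (adjusted p = 0.0472) and, in males, of Pdk4 (0.0269) and Cyp4a10 (0.0964), and no other call among the members.

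Of 4306 values under alternatives, 77 changed sign, all of values that had not passed. For diet in liver these were Ppara with library totals (0.038), Cyp4a10 (-0.085) and Cpt1a (-0.13) in the low kind, Ehhadh with kind as a term (-0.057), with limma-voom (-0.025), in the low kind (-0.23), without a replicate number (-0.15 to 0.10) and without single libraries (-0.12 to 0.07), and Acot1 with kind as a term (-0.10), in the low kind (-0.32), without replicate 3 (-0.53) and without single libraries (-0.12 to 0.13). For sex, Ppara was at 0.038 with library totals and -0.079 to 0.021 without a replicate number or a single library. For diet by sex, Ppara was at -0.14 to 0.28 without a replicate number and -0.03 to 0.14 without single libraries, and Cpt1a at -0.019 with kind as a term, -0.017 with limma-voom, -0.0048 with library totals, -0.038 with the replicate block, -0.039 without replicate 1, -0.012 without control CT8 (a) and -0.16 to 0.14 without single libraries. Acot1 in males was at 0.057 when summed with Acot2. Cyp4a10 in females was at 0.21 with library totals, 0.048 with limma-voom, 0.27 in the paralog sum, 0.056 without replicate 1 and -0.31 to 0.20 without single libraries. Liver against SCN was 0.035 for Ehhadh with library totals and -0.34 to 0.64 for Acot1 without a replicate number. Cyp4a10 for diet passed with library totals (0.81), limma-voom (0.74), paralog sums (0.76) and without replicate 1 (0.83) or 3 (0.89), and Cpt1a with library totals (0.41).

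Over all genes the count called went, without a replicate number, from 986 to 4 to 537 (difference in rhythm) and from 3081 to 54 to 2000 (CT12). It went from 263 at CT8 to 1212 without control CT8 (a), and from 986 to 1838 (difference in rhythm), 359 to 709 (diet by sex) and 10 to 48 (SCN diet) with DESeq2. With library totals 87.3% of the genes called for diet in liver were higher, against 54.4%.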
